A study of Mus musculus with 16 samples.

Results

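Rab GTPases were described here across mouse intestinal enteroids with and without functional myosin Vb (MYO5B), the motor that carries recycling endosomes toward the apical membrane. The members are the protein-coding genes of the count table whose symbol is Rab followed by a number, with an optional letter and digit, which gave 59 of the 54532 genes listed. Of these, 52 had at least 1 read in all 16 libraries, 53 passed the filter on low counts in at least 1 comparison, and 6 passed it in none. The symbol alone chose the members, so no expression value entered the rule.

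Enteroids are cultured epithelial buds grown from intestinal crypts, here of the jejunum of adult mice, and 4 cultures were sequenced in each of 4 groups as bulk poly-A RNA. The genotype of MYO5BΔIEC enteroids was Vil1-CreERT2;Myo5b flox/flox, in which the villin promoter drives a Cre that acts in epithelial cells once 4-OH-tamoxifen is added. The MYO5B(G519R) enteroids were Vil1-CreERT2;Myo5b flox/G519R, so that Cre left 1 allele carrying the G519R change. Both were given 4-OH-tamoxifen at 1 µM for 24 h. The control enteroids are labelled only as control. The design text gives them the floxed genotype of the MYO5BΔIEC enteroids and names ethanol vehicle for cultures that were not induced, so 4-OH-tamoxifen exposure and loss of MYO5B cannot be told apart here. The fourth group was MYO5BΔIEC given Compound-1, an agonist of the lysophosphatidic acid receptor LPAR5, at 100 nM for 2 days. The other MYO5BΔIEC cultures received vehicle. Cultures of all 4 groups are labelled as differentiated enteroids, and by the study's account differentiation medium followed the induction step. By the study's account each culture of a group came from its own mouse and the control mice were littermates, while whether the MYO5BΔIEC cultures with and without Compound-1 share mice is not stated. In bulk RNA fewer cells of a type and less RNA per cell cannot be told apart.

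Library depth was even, from 27804968 to 40101729 counted reads, and 3 reads, the floor used here for detection, were worth 0.0736 to 0.111 CPM (counts scaled to library size and composition). Control culture 1 stood apart from the other 3 control cultures. Its summed enterocyte markers were 3064 CPM against 12517 to 15502 in the other controls, and its stem cell markers were 2166 CPM against 4081 to 6149. The 12 MYO5B-deficient cultures lay at 5661 to 11856 CPM for the 9 enterocyte markers and at 405 to 2316 CPM for the 4 stem cell markers, and the part of these shifts in the Rab differences was not tested. In control culture 1 the Paneth cell markers summed to 3244 CPM, against 6648 to 7738 in the other controls and 3092 to 4647 in the 12 MYO5B-deficient cultures, and the tuft cell markers to 64.9 CPM, against 19.7 to 25.4 and 14.4 to 29.1. Mitochondrial genes took 6.41% of its counts, against 9.07% to 10.4% in the other controls and 3.79% to 6.63% in the 12. The rank correlation of expression with transcript length across genes was 0.098 in that culture and ran from -0.360 to -0.396 in the other controls. In the 12 MYO5B-deficient cultures it ran from -0.163 to 0.337, a range that holds control culture 1 and none of the other 3 controls. Fits without control culture 1 therefore keep only the controls that differ most from the 12 in this length trend. The value of control culture 1 lay outside the range of the other 3 controls for 44 of 52 Rab genes (84.6%, against 79.6% of all genes), and by more than 1.5-fold for 12 of them (23.1%, against 32.5% of all genes). Results against control are therefore given with and without it. Non-epithelial markers were low in all libraries, with fibroblast and muscle genes under 1 CPM, immune genes at most 9.38 CPM and endothelial genes at most 1.76 CPM.

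Whole-gene Myo5b counts averaged 189 ± 29.9 CPM in control, 128 ± 31.0 for MYO5BΔIEC, 150 ± 17.0 for MYO5B(G519R) and 111 ± 26.8 for the Compound-1 group (SD, n = 4 each). The difference from control passed the threshold only in the Compound-1 group (log2 fold change -0.77, edgeR adjusted p = 0.0146), and not in MYO5BΔIEC (-0.55, edgeR adjusted p = 0.0503) or MYO5B(G519R) (-0.33, edgeR adjusted p = 0.109). Without control culture 1 the difference passed in all 3. These counts include exons outside the deleted part and do not test the deletion itself.

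Rab proteins are small GTPases that switch between an inactive GDP form and an active GTP form, and each marks particular membranes along the secretory and endocytic routes. Exchange factors load GTP, GTPase-activating proteins end the signal, and effectors such as motors and tethers bind the active form. Rab proteins are anchored by prenyl groups added with the help of escort proteins. In enterocytes Rab11a, Rab8a and MYO5B work on the route that brings membrane to the brush border, and loss of MYO5B function underlies microvillus inclusion disease.

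Promoter sequences are printed for 5 members: Rab31 and Rab40c, which were higher in all 3 MYO5B-deficient groups, Rab28, which was lower in all 3, and Rab9 and Rab25, which were lower in both models. Each is the 150 bases upstream of the RefSeq transcript start in GRCm38.p6, read 5′ to 3′ on the strand of the gene. Capitals mark matches on either strand to GGGCGG (a GC box), CACGTG (an E-box), CCAAT or TATAAA. No marked match in these windows overlaps another.
Rab31, chr17:65772753-65772902, minus strand: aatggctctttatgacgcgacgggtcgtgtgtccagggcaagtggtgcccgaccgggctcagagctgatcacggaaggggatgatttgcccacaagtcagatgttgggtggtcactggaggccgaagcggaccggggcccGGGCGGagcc
Rab40c, chr17:25919715-25919864, minus strand: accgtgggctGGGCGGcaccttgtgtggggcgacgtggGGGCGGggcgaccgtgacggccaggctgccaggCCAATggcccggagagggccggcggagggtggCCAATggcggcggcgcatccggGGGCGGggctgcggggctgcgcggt
Rab28, chr5:41708180-41708329, minus strand: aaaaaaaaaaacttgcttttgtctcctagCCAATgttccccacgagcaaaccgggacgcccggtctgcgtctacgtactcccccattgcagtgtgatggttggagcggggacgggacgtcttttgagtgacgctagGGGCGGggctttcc
Rab9, chrX:166479868-166480017, minus strand: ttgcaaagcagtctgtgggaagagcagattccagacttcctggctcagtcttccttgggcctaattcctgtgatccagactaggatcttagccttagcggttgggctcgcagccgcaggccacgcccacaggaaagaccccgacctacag
Rab25, chr3:88548280-88548429, minus strand: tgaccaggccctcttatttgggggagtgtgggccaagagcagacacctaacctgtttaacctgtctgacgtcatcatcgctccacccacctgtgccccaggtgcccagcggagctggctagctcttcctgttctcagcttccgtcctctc

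The GC box occurs 3 times in the Rab40c window, once each in the windows of Rab31 and Rab28, and not at all in those of Rab9 and Rab25. Of windows extracted but not printed, that of Rab22a held 5, overlapping matches included, and the 2 of Rab34 held 0 and 1. The window of Rab11a, which passed in neither model, held 1. The RefSeq table held 60 windows for 48 of the 59 members, and 35 of these windows (58.3%) contain a GC box, against 28.6% of all 32851 windows of the same length. CCAAT occurs in 15 Rab windows (25%, against 24.5% of all), the E-box in 3 (5%, against 4.3%) and TATAAA in 2 (3.33%, against 7.57%). The GC content of the printed windows was 64% for Rab31, 79.3% for Rab40c, 56% for Rab28, 56.7% for Rab9 and 58.7% for Rab25, against a median of 54% over all windows. A match in a window describes its letters only.

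Levels of different genes were compared per length, as the deposited FPKM (fragments scaled to transcript length and library size). In control enteroids 20 of 59 Rab genes averaged at least 10 FPKM and 20 were under 1 FPKM. Rab25, the epithelial relative of Rab11 at the apical recycling endosome, had the highest control mean at 112 FPKM. In control culture 1 it was below Rab2a, at 89.4 against 92.5 FPKM. Next by control mean came Rab2a, which acts between the endoplasmic reticulum and the Golgi, at 105 FPKM, and Rab1a, which acts on the same step, at 92.8 FPKM. Rab7, which governs late endosome fusion with lysosomes, stood at 71.6 FPKM and Rab5c, an early endosome Rab, at 69.9 FPKM. These 5 genes made up 47.8% of all Rab FPKM in control, against 42.7% for MYO5BΔIEC, 43.0% for MYO5B(G519R) and 42.8% for the Compound-1 group. The 5 were picked by their control mean, which by itself favours a higher share in control. Their shares carry no correction for the length trend. Summed Rab CPM ranged from 2604 to 3310 over the 16 libraries, with means of 2854 ± 92.1 for control, 2840 ± 143 for MYO5BΔIEC, 2676 ± 76.0 for MYO5B(G519R) and 3103 ± 152 for the Compound-1 group.

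**Figure D1:**
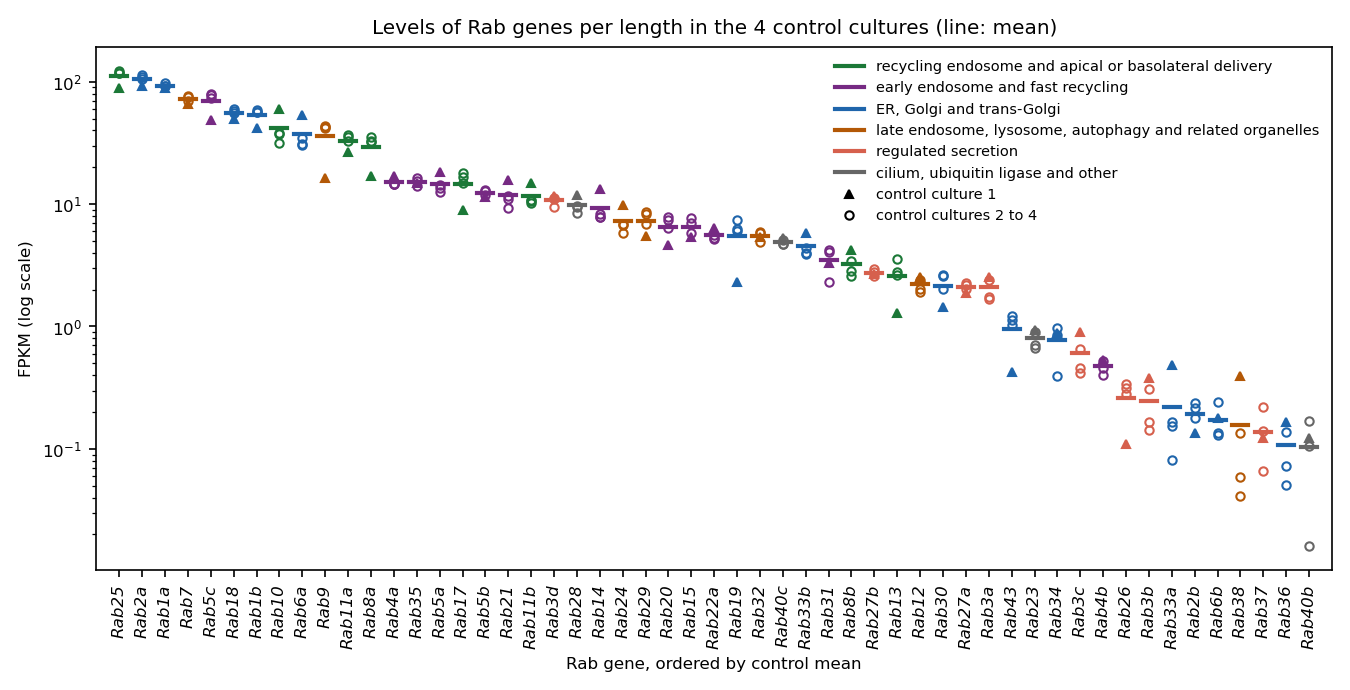
Level per length (FPKM, log axis) of the more abundant Rab genes in the 4 control cultures, ordered by control mean. Triangles are control culture 1, open circles are control cultures 2 to 4, lines are means and colours are the role groups; Rab25, Rab2a and Rab1a come first, at means of 112, 105 and 92.8 FPKM.

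By role, the 12 early endosome and fast recycling Rabs took 18.1% ± 0.319 of Rab FPKM in control, against 21.2% ± 1.41 for MYO5BΔIEC, 21.6% ± 0.231 for MYO5B(G519R) and 22.3% ± 1.92 for the Compound-1 group. The 8 recycling endosome and polarized delivery Rabs took 26.3% ± 0.568 in control, against 24.3% ± 0.606, 24.7% ± 0.662 and 24.5% ± 0.568 in the same order (SD, n = 4 each). These shares are a description, since a share falls when another member's share climbs.

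The first comparison set the vehicle-treated MYO5BΔIEC cultures against the control cultures. In MYO5BΔIEC against control, 6 of 52 tested Rab genes rose and 5 fell, where 13.5% of all tested genes rose and 13.8% fell. The rises were in Rab31, Rab34, Rab30, Rab40c, Rab21 and Rab22a, and the falls in Rab2a, Rab25, Rab28, Rab29 and Rab9. The median log2 fold change was 0.15 over the tested Rab genes and -0.01 over all tested genes. Without control culture 1, 12 Rab genes rose and 9 fell, where 21.2% of all tested genes rose and 20.8% fell. With a correction for the trend of fold change with transcript length, 7 rose and 3 fell, where 11.9% of all tested genes rose and 15.1% fell. The rank correlation of fold change with length was 0.413 across the tested Rab genes and 0.286 across all tested genes, which are not independent replicates. The ranges of the groups did not overlap for 10 of the 52, where this held for 26.9% of all tested genes.

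The counts by role below stand beside the shares of all tested genes, 13.5% up and 13.8% down. Without control culture 1 those shares were 21.2% and 20.8%. Of the early endosome Rabs, 3 of 12 tested rose and none fell, and 5 rose and 1 fell without control culture 1. Rab31 moves cargo between the trans-Golgi network and endosomes and lies at chr17:65651729-65772752 (GRCm38, as are the other gene positions). Its counts were 12.7, 16.6, 15.8 and 9.22 CPM in control cultures 1 to 4, against 32.7, 36.9, 45.7 and 25.3 CPM in MYO5BΔIEC cultures 1 to 4. Every MYO5BΔIEC culture was above every control culture. Rab31 rose 2.60-fold (log2 fold change 1.38 ± 0.23 SE, edgeR adjusted p = 0.00276), and its log2 fold change was 1.34 without control culture 1. Rab22a, its closest relative and a regulator of endosomal recycling, stood at 46.5, 39.1, 41.3 and 38.6 CPM in control and at 57.8, 60.0, 63.4 and 55.4 CPM in MYO5BΔIEC. It rose by 0.52 ± 0.12 on the log2 scale (edgeR adjusted p = 0.0104), with groups that did not overlap. Rab21, which acts in integrin traffic, stood at 79.96, 48.6, 60.6 and 58.2 CPM in control and 86.9, 97.5, 96.6 and 85.3 CPM in MYO5BΔIEC. Its control culture 1 was the nearest to the MYO5BΔIEC range, and it rose by 0.57 ± 0.16 on the log2 scale (edgeR adjusted p = 0.0220). Rab35, which drives fast recycling to the plasma membrane, did not pass (log2 fold change 0.40, edgeR adjusted p = 0.0517).

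Of the ER, Golgi and trans-Golgi Rabs, 2 of 14 tested rose and 1 fell, and 3 rose and 3 fell without control culture 1. Rab34, which acts in Golgi and lysosome positioning and in cilium formation, was scarce, at 2.13, 0.964, 2.40 and 2.11 CPM in control and 2.88, 7.10, 5.80 and 3.33 CPM in MYO5BΔIEC. The lowest MYO5BΔIEC value was above the highest control value, and the gene rose by 1.33 ± 0.37 on the log2 scale (edgeR adjusted p = 0.0228). Rab30, a Golgi Rab, had 14.0, 26.0, 25.4 and 20.3 CPM in control and 51.8, 25.8, 41.6 and 36.9 CPM in MYO5BΔIEC. Culture 2 of MYO5BΔIEC fell inside the control range, and the log2 fold change was 0.87 ± 0.24 (edgeR adjusted p = 0.0236). Rab2a at chr4:8535644-8607778 had 199, 233, 248 and 240 CPM in control and 167, 157, 187 and 176 CPM in MYO5BΔIEC. All control cultures were above all MYO5BΔIEC cultures, and Rab2a fell by 0.42 on the log2 scale (SE 0.13, edgeR adjusted p = 0.0375).

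Of the late endosome and lysosome Rabs, none of 6 tested rose and 2 fell, and 1 rose and 2 fell without control culture 1. Rab9 returns mannose 6-phosphate receptors from late endosomes to the trans-Golgi network and lies at chrX:166457253-166479867. It had 29.1, 76.1, 76.5 and 78.5 CPM in control and 37.5, 29.7, 36.7 and 34.1 CPM in MYO5BΔIEC. Control culture 1 was below every MYO5BΔIEC culture, and the other 3 controls were above all of them. Rab9 fell by 0.91 on the log2 scale (SE 0.27, edgeR adjusted p = 0.0308), and by 1.15 without control culture 1. Leaving out any 1 of the other 7 libraries ended the call, with an edgeR adjusted p of 0.0603 to 0.0905. Rab29, which acts at the trans-Golgi network and stressed lysosomes, had 8.15, 12.5, 12.9 and 10.5 CPM in control and 7.52, 6.08, 7.22 and 6.06 CPM in MYO5BΔIEC. Every control value was above every MYO5BΔIEC value, and it fell by 0.71 on the log2 scale (SE 0.20, edgeR adjusted p = 0.0226).

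Of the recycling endosome and polarized delivery Rabs, none of 8 tested rose and only Rab25 fell. Rab25 at chr3:88542029-88548300 had 151, 212, 204 and 206 CPM in control and 130, 127, 130 and 153 CPM in MYO5BΔIEC. Control culture 1 and MYO5BΔIEC culture 4 were nearly level and the other cultures were separate. Rab25 fell by 0.51 on the log2 scale (SE 0.15, edgeR adjusted p = 0.0258), and by 0.61 without control culture 1. Leaving out any 1 of control cultures 2 to 4 or MYO5BΔIEC cultures 1 to 3 ended the call, with an edgeR adjusted p of 0.0544 to 0.0798. The log2 fold change of Rab11a, which binds MYO5B directly, was 0.21 ± 0.17 (edgeR adjusted p = 0.391), with control at 80.03, 109, 113 and 102 CPM and MYO5BΔIEC at 96.4, 121, 145 and 102 CPM. For Rab11b it was 0.26 (edgeR adjusted p = 0.205), for Rab14, a trans-Golgi and endosome Rab, 0.31 (edgeR adjusted p = 0.236), and for Rab8a, which carries vesicles to the apical surface, -0.22 (edgeR adjusted p = 0.479). Without control culture 1, Rab11b, Rab14 and Rab8a passed, at 0.39, 0.52 and -0.42. Rab8b stood at 0.07 and Rab10, a basolateral delivery Rab, at -0.0025, and the ranges of both overlapped between the groups.

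In the remaining roles, none of 8 tested secretion Rabs passed the threshold, at a median log2 fold change of 0.23, and Rab3a rose without control culture 1. In the cilium, ubiquitin ligase and other group 1 of 4 rose and 1 fell. Rab40c, which joins a ubiquitin ligase through its SOCS box, had 16.5, 15.0, 15.1 and 16.2 CPM in control and 24.3, 26.1, 23.1 and 24.2 CPM in MYO5BΔIEC. The groups were far apart relative to their spread, and Rab40c rose by 0.65 ± 0.13 on the log2 scale (edgeR adjusted p = 0.00535). Rab28, which acts with cilia, had 54.1, 44.4, 44.8 and 39.8 CPM in control and 26.0, 28.8, 27.9 and 35.6 CPM in MYO5BΔIEC. All control values were higher, and Rab28 fell by 0.62 on the log2 scale (SE 0.15, edgeR adjusted p = 0.0120). The calls of Rab31, Rab40c, Rab22a and Rab28 held in all 8 fits that left out 1 library. Those of Rab30, Rab2a, Rab25 and Rab29 were lost with the length correction. Beside Rab9 and Rab25, the single libraries that ended a call were control cultures 2 to 4 and MYO5BΔIEC cultures 1, 2 and 4 for Rab2a (edgeR adjusted p 0.0542 to 0.119), control cultures 2 to 4 and MYO5BΔIEC cultures 2 and 3 for Rab21 (0.0531 to 0.0677), control cultures 2 to 4 and MYO5BΔIEC culture 2 for Rab29 (0.0519 to 0.0819), control cultures 2 and 4 and MYO5BΔIEC cultures 2 and 3 for Rab34 (0.0524 to 0.0792), and control culture 4 and MYO5BΔIEC cultures 1 and 3 for Rab30 (0.0556 to 0.0716).

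**Figure D2:**
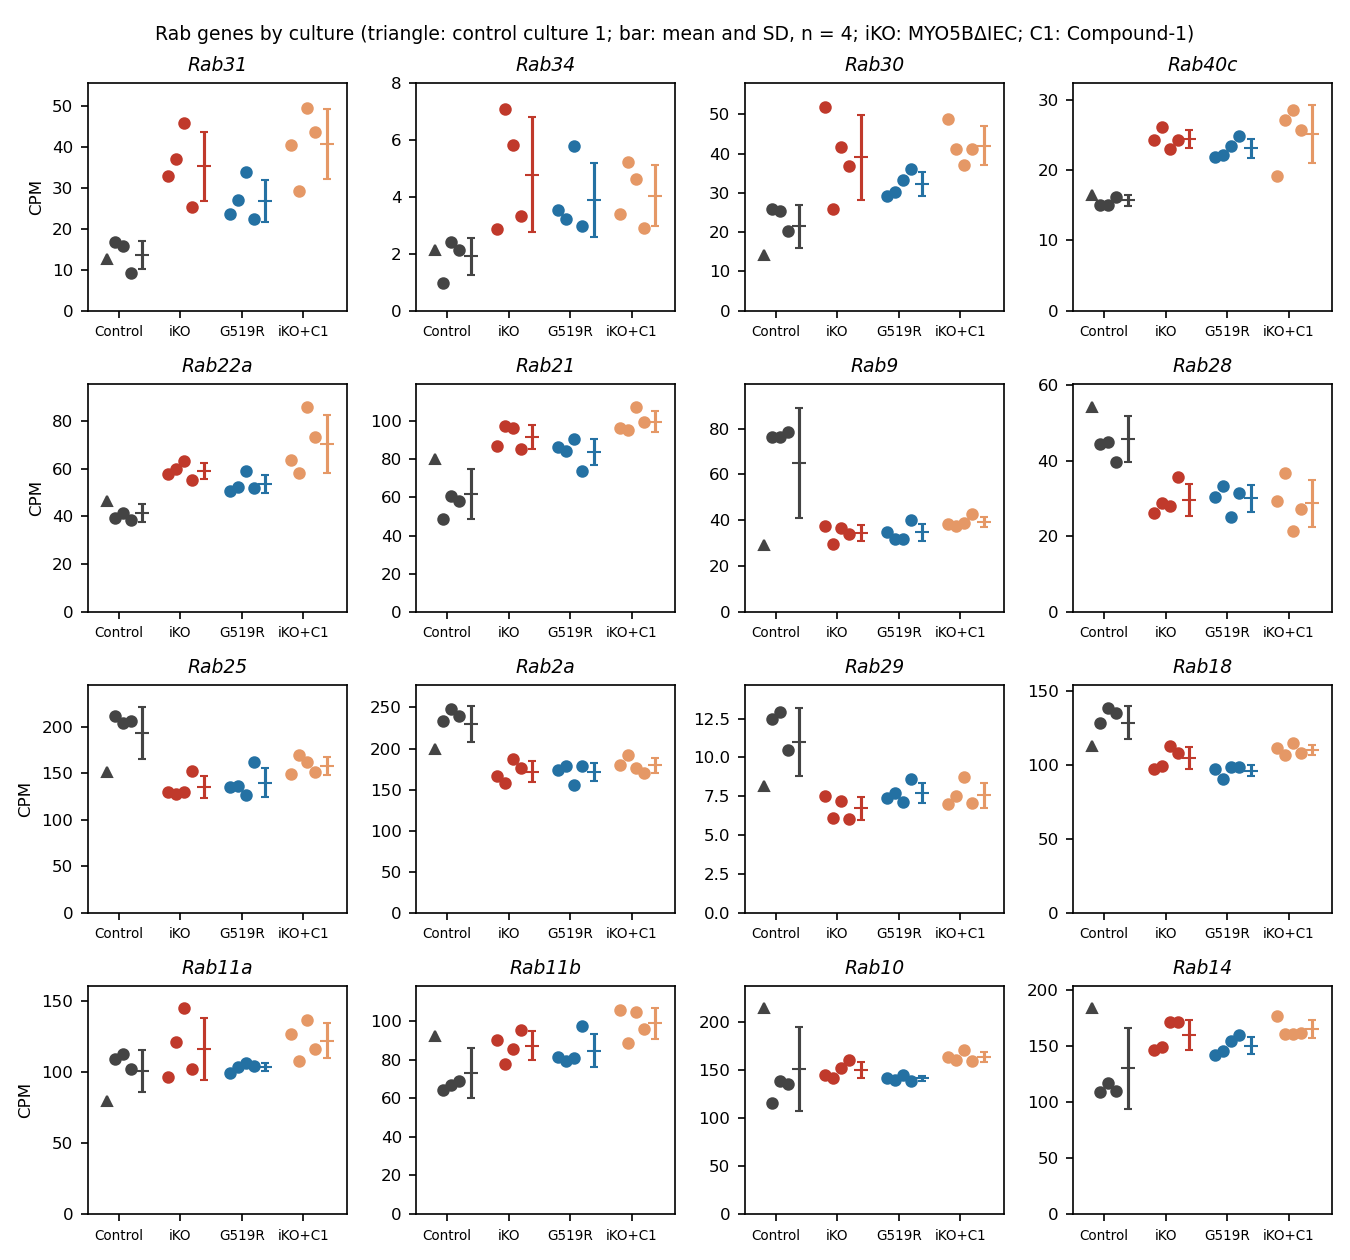
CPM of 16 named Rab genes in each culture, with axes from 0; triangles are control culture 1, circles the other cultures, and bars the mean and SD (n = 4); iKO is MYO5BΔIEC and C1 is Compound-1. Rab31 lies between 9.22 and 16.6 CPM in control and between 25.3 and 45.7 CPM in MYO5BΔIEC, and control culture 1 is the low Rab9 point at 29.1 CPM.

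The second comparison set the point mutant against the same control cultures. In MYO5B(G519R) against control, 7 of 53 tested Rab genes rose and 6 fell, where 13.1% of all tested genes rose and 13.7% fell. Without control culture 1, 13 rose and 12 fell, where 24% of all tested genes rose and 22.1% fell. With the length correction 5 rose and 7 fell, against 12.6% and 14.9% of all tested genes. The ranges did not overlap for 15 of 53, where this held for 27.4% of all tested genes. Fold change and length had a rank correlation of 0.202 across the tested Rab genes, below the 0.294 across all tested genes. The median log2 fold change was 0.04 over the Rab genes and -0.05 over all genes. Both models share the 4 control cultures, so a common shift against control is not separate evidence, and the values of each are given side by side.

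The log2 fold changes in MYO5B(G519R) were 0.97 for Rab31, 1.03 for Rab34, 0.59 for Rab30, 0.56 for Rab40c and 0.37 for Rab22a, against 1.38, 1.33, 0.87, 0.65 and 0.52 in MYO5BΔIEC. All 5 rose in both. Rab31 stood at 23.6, 27.0, 33.8 and 22.4 CPM in MYO5B(G519R) cultures 1 to 4, all above the control range (1.96-fold, SE 0.21 on the log2 scale, edgeR adjusted p = 0.00854). Rab35 (0.40, edgeR adjusted p = 0.0255) and Rab3d, a secretory granule Rab (0.38, edgeR adjusted p = 0.0374), rose in MYO5B(G519R) and had log2 fold changes of 0.40 and 0.24 in MYO5BΔIEC, where neither passed. Rab21, at 0.44, passed only in MYO5BΔIEC.

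Rab28, Rab25, Rab2a and Rab9 fell in both, with log2 fold changes of -0.61, -0.46, -0.42 and -0.91 in MYO5B(G519R). Rab9 stood at 35.02, 31.7, 31.8 and 39.96 CPM in MYO5B(G519R), again above control culture 1 and below the other 3 controls, and leaving out any 1 of the other 7 libraries ended the call (edgeR adjusted p 0.0520 to 0.0917). Rab18, which acts at the endoplasmic reticulum and lipid droplets, fell by 0.42 on the log2 scale (SE 0.10, edgeR adjusted p = 0.0156), and Rab5a, which drives early endosome fusion, fell by 0.45 (SE 0.13, edgeR adjusted p = 0.0269). In MYO5BΔIEC their log2 fold changes were -0.30 and -0.22 and neither passed. The calls of Rab31, Rab40c and Rab28 held in all 8 fits that left out 1 library, and those of Rab30, Rab3d, Rab22a and Rab25 were lost with the length correction. Rab34, Rab22a, Rab2a and Rab25 lost theirs without any 1 of control cultures 2 to 4 or MYO5B(G519R) cultures 1 to 3 (edgeR adjusted p 0.0550 to 0.125 over the 4 genes). Rab30 lost its call without control cultures 3 or 4 or any MYO5B(G519R) culture, Rab3d without control cultures 2 to 4 or MYO5B(G519R) cultures 1, 3 or 4, and Rab35 without control cultures 2 or 4 or MYO5B(G519R) cultures 2 to 4 (0.0515 to 0.107 over the 3). Rab5a lost it without control culture 3 or MYO5B(G519R) cultures 1, 2 or 4, and Rab18 without control culture 3 or MYO5B(G519R) culture 2 (0.0545 to 0.0842 over both).

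**Figure D3:**
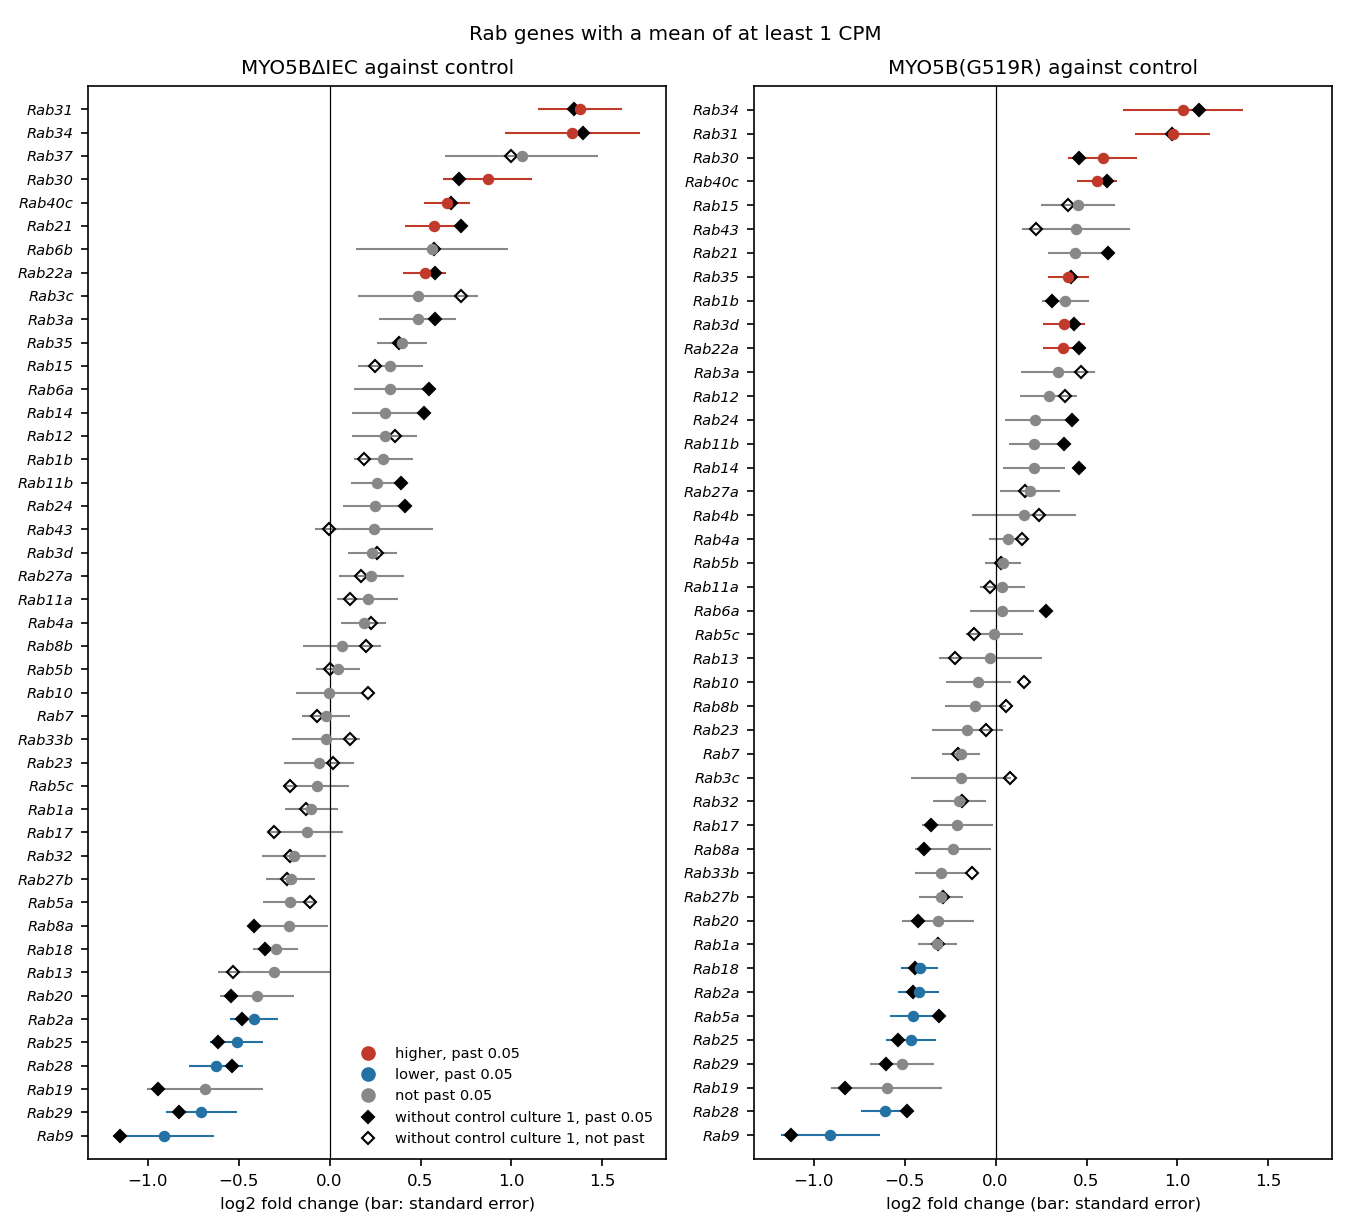
Log2 fold change against control of the Rab genes with a mean of at least 1 CPM, in MYO5BΔIEC and in MYO5B(G519R); circles are the fit with all libraries (bar, SE), red or blue where past the adjusted threshold of 0.05, and diamonds are the fit without control culture 1, filled where past it. Rab31 is the top gene for MYO5BΔIEC, at 1.38, and Rab9 the bottom gene in both panels, at -0.91.

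MYO5B(G519R) was also set against MYO5BΔIEC directly, a comparison that uses no control culture. None of 53 Rab genes passed, where 0.00557% of all tested genes did, and 3 of 53 had an unadjusted p under 0.05, where 4.3% of all tested genes did. DESeq2 called 0 Rab genes and 0.0223% of all tested genes. The groups overlapped for all 53, where 1.85% of all tested genes had groups that did not. Rab31 was lower by 0.40 on the log2 scale in MYO5B(G519R) with an SE of 0.19 (edgeR adjusted p = 0.838), and Rab25 differed by 0.05 with an SE of 0.11 (edgeR adjusted p = 0.923).

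Within the Rab11 subfamily, Rab25 made up 71.4% ± 2.17 of the summed FPKM in control, with cultures at 68.3%, 72.9%, 71.5% and 73.0%. Its share was 60.3% ± 4.05 in MYO5BΔIEC, with cultures at 62.3%, 58.8%, 55.4% and 64.7%, and 63.2% ± 1.95 in MYO5B(G519R). Every culture of both models was below every control culture. Rab11a made up 20.9% of the subfamily in control, and 29.0% and 26.3% in the respective models, and Rab11b made up 7.65%, 10.7% and 10.5%. In the Compound-1 group the shares were 62.4% for Rab25, 26.9% for Rab11a and 10.7% for Rab11b. These proteins bind the same family of effectors, and their transcripts share stretches of sequence, so how the counting treated shared reads could move these shares. Rab25 is also the shortest, at 1673 bases, against 2992 for Rab11a and 6109 for Rab11b. The shares carry no correction for the length trend, and with that correction the Rab25 call was lost in both models. The part of the length trend in these shares was not tested.

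**Figure D4:**
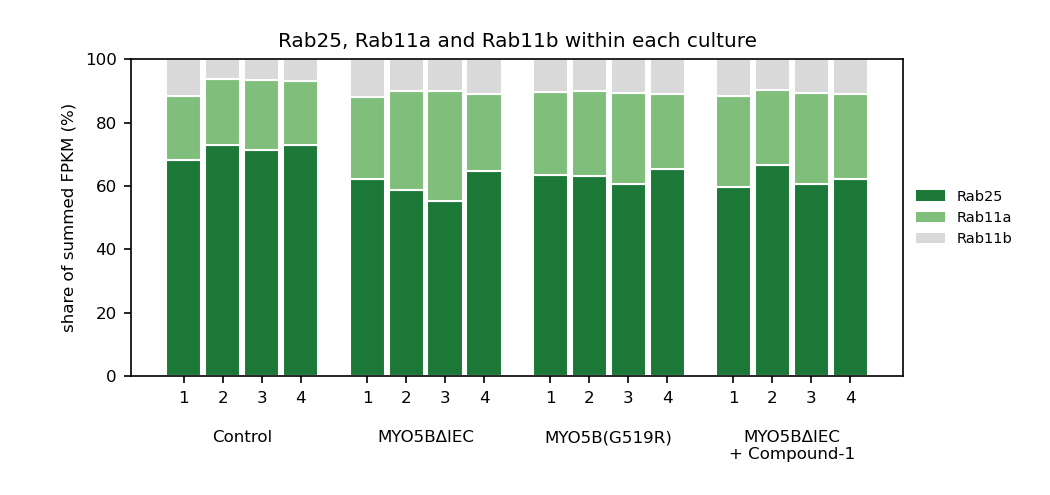
Stacked shares of Rab25, Rab11a and Rab11b in their summed FPKM (percent) in each of the 16 cultures, by group. The Rab25 segment averages 71.4% in control and 60.3% in MYO5BΔIEC.

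The third question was whether the LPAR5 agonist changed the Rab genes of MYO5BΔIEC enteroids. In Compound-1 against vehicle within MYO5BΔIEC, 0 of 52 Rab genes passed with edgeR, where 0% of all tested genes did. DESeq2 called 0 Rab genes and 0.505% of all tested genes, and 5 of 52 Rab genes had an unadjusted p under 0.05, where 7.51% of all tested genes did. Rab15, which acts in early endosome recycling, stood at 43.5, 44.8, 94.0 and 83.7 CPM with Compound-1 and at 37.8, 42.0, 29.4 and 45.6 CPM without. Cultures 3 and 4 with Compound-1 were high and cultures 1 and 2 lay within the vehicle range (log2 fold change 0.75 ± 0.26, edgeR adjusted p = 0.560). Rab27b, which docks secretory granules, stood at 35.3, 28.7, 61.9 and 46.0 CPM against 23.7, 22.7, 29.0 and 28.2 CPM (0.70 ± 0.22, edgeR adjusted p = 0.550). Summed goblet cell markers reached 5987 CPM in the Compound-1 group against at most 2499 CPM in MYO5BΔIEC. Enteroendocrine markers ran from 402 to 1584 CPM with Compound-1, against 580 to 1193 CPM without. Stem cell markers ran from 405 to 1594 against 737 to 1798 CPM, and proliferation markers from 468 to 1034 against 733 to 971 CPM. The part of these markers in the Rab15 and Rab27b values was not tested. Rab35 and Rab9 were the 2 genes whose groups did not overlap, both higher with Compound-1, at log2 fold changes of 0.35 and 0.16, and neither passed. They are 2 of 52, where the groups did not overlap for 2.86% of all tested genes.

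Against control, the Compound-1 group had 9 of 52 Rab genes higher and 1 lower, where 15.7% of all tested genes rose and 13.7% fell. Without control culture 1, 15 rose and 7 fell, where 22.9% of all tested genes rose and 19.2% fell. With the length correction 8 rose and 1 fell, against 14.3% and 15.8% of all tested genes. The ranges did not overlap for 13 of 52, where this held for 27.9% of all tested genes. Fold change and length had a rank correlation of 0.387 across the tested Rab genes and 0.276 across all tested genes. The median log2 fold change was 0.22 over the Rab genes and -0.05 over all genes. These are again the same control cultures. Rab31 rose by 1.58 ± 0.23 on the log2 scale (2.99-fold, edgeR adjusted p = 0.00398), and Rab15 by 1.11 ± 0.27 (edgeR adjusted p = 0.0129). Rab34 (1.09), Rab30 (0.97), Rab35 (0.77), Rab22a (0.76), Rab21 (0.69), Rab40c (0.68) and Rab3d (0.49) also rose, and 5 of the 12 early endosome Rabs were among the 9. Rab28 fell by 0.68 on the log2 scale (SE 0.18, edgeR adjusted p = 0.0197). Rab9, Rab2a and Rab25 had log2 fold changes of -0.73, -0.36 and -0.29 and did not pass. The calls of Rab34, Rab3d and Rab28 were lost in 5, 6 and 2 of the 8 fits that left out 1 library (edgeR adjusted p 0.0510 to 0.124), and those of Rab30 and Rab3d with the length correction.

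The genes that load, switch off and bind Rab proteins were taken from 4 lists. In MYO5BΔIEC against control, 16 of 38 exchange factors rose and 2 fell, 14 of 33 GTPase-activating proteins rose and none fell, and 12 of 44 effectors rose and 3 fell. Of 8 prenylation, escort and extraction genes, none rose and 2 fell. Without control culture 1 these counts were 20 and 2, 19 and 2, 14 and 4, and 1 and 4, and with the length correction they were 12 and 2, 12 and 3, 10 and 5, and 0 and 4. In MYO5B(G519R) against the same controls they were 14 and 2, 16 and 2, 12 and 4, and 0 and 4. In the Compound-1 group against control they were 16 and 1 of 37, 14 and 0, 19 and 2, and 0 and 2. None passed in either comparison that lacks controls. Of all tested genes, 13.5% rose and 13.8% fell in MYO5BΔIEC, with 21.2% and 20.8% without control culture 1 and 11.9% and 15.1% with the length correction. The shares were 13.1% and 13.7% in MYO5B(G519R) and 15.7% and 13.7% in the Compound-1 group.

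Among exchange factors, Rin3, which activates Rab5-family members including Rab31, averaged 5.73 CPM in control and 16.4 CPM in MYO5BΔIEC and rose by 1.52 ± 0.25 on the log2 scale (edgeR adjusted p = 0.00258). Dennd2c, an exchange factor for Rab9, rose by 1.41 ± 0.27 (edgeR adjusted p = 0.00476). Ccz1, a subunit of the complex that activates Rab7, fell from 89.2 to 65.6 CPM (log2 fold change -0.44, edgeR adjusted p = 0.0331), and Dennd2d fell by 0.47 on the log2 scale. Among GTPase-activating proteins, Tbc1d2, which acts on Rab7, went from 11.7 to 32.0 CPM (1.46 ± 0.19, edgeR adjusted p = 0.00148), and Sgsm2 rose by 1.20.

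Among effectors, Sytl1, which binds Rab27, rose from 5.97 to 21.2 CPM (1.84 ± 0.32, edgeR adjusted p = 0.00322), and Micall2, which binds Rab8 and Rab13, rose by 1.23. Exoc6, the exocyst subunit that binds Rab11, fell from 52.1 to 32.5 CPM (-0.68 ± 0.13, edgeR adjusted p = 0.00484), and Rabepk, a Rab9 effector, fell by 0.74. The calls of Ccz1, Dennd2d and Rabepk held in only 2, 1 and 1 of the 8 fits that left out 1 library, and those of the other named regulators held in all 8. Rabggtb, the catalytic subunit of the enzyme that prenylates Rabs, fell from 87.2 to 58.8 CPM (-0.56 ± 0.13, edgeR adjusted p = 0.0105), and Rabac1, which helps Rabs onto membranes, fell by 0.79. Rab11fip1, which encodes a Rab11 family interacting protein, was picked after its values were seen. It averaged 69.8 ± 5.81 CPM in control, against 150 ± 17.3 for MYO5BΔIEC and 139 ± 19.6 for MYO5B(G519R), and rose by 1.11 and 0.99 on the log2 scale in the models.

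**Figure D5:**
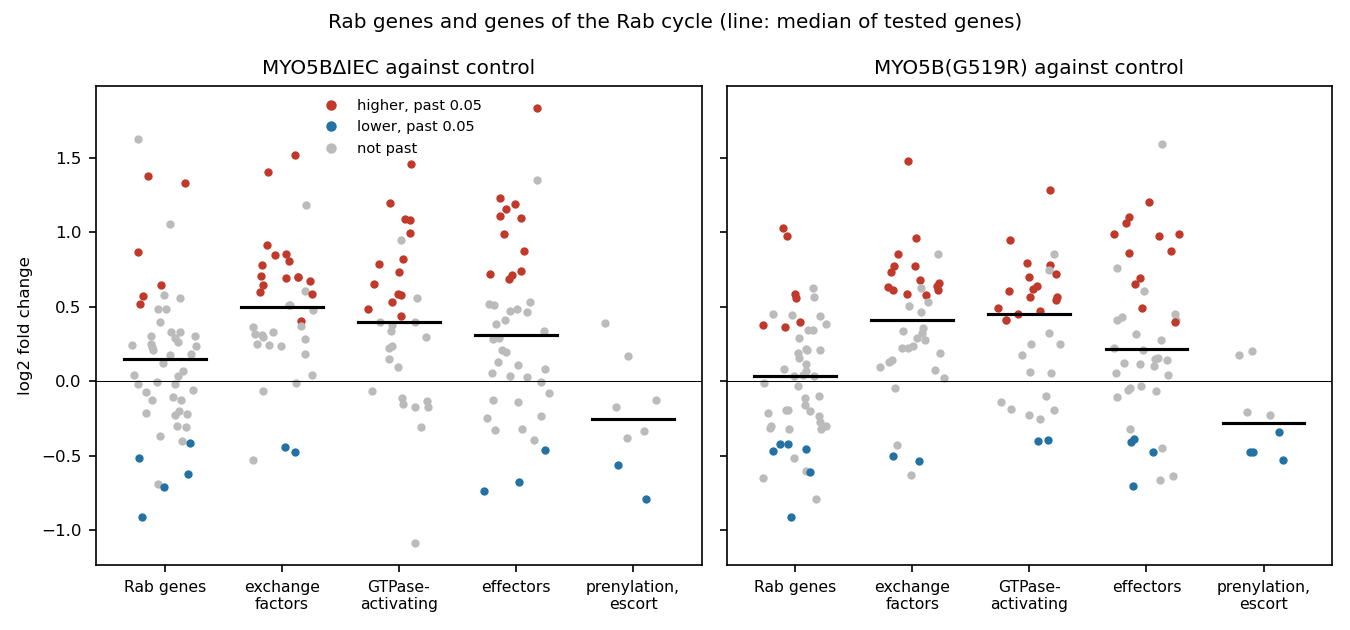
Log2 fold change against control of the tested Rab genes and of the 4 lists of Rab-cycle genes, for MYO5BΔIEC and MYO5B(G519R); each point is a gene, red where higher and blue where lower past the adjusted threshold of 0.05, and lines are medians. In MYO5BΔIEC the median is 0.15 for the Rab genes, 0.50 for exchange factors, 0.40 for GTPase-activating proteins, 0.32 for effectors and -0.25 for prenylation and escort genes.

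Exons of 20 of the 59 Rab genes overlap another gene in GENCODE vM21, and the strand setting of the counting is not stated. Prelid1 covers 62.4% of the exon length of Rab24 on the opposite strand, while among called genes the overlap was 3.33% for Rab40c, 1.65% for Rab22a, 4.45% for Rab18 and 4.19% for Rab5a. How reads shared by near-identical Rab paralogs were assigned is not stated either, so their split is uncertain.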

How the data were processed

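RNA was measured as bulk poly-A sequencing in 16 mouse enteroid cultures. The authors aligned the reads to GRCm38/mm10 and deposited raw read counts per gene together with FPKM values, with STAR 2.5, TopHat, HTSeq 0.6.1 and DESeq2 named in the submitters' processing notes. How reads with several locations and strand were handled is not given in the sources used here. Counts were tested with edgeR 4.0.16 in R 4.3.3 by the quasi-likelihood test, in a separate fit of the 8 libraries of each comparison, keeping genes that reached 10 counts in 2 or more of them, with TMM scaling and Benjamini-Hochberg adjustment over all genes tested, at 0.05. SE is the size of the log2 fold change divided by the square root of the F statistic. CPM used TMM over all 16 libraries, and FPKM served only to compare levels between genes and as an alternative. DESeq2 1.42.0 and limma 3.58.1 were alternatives. The fits, but no other step, were tested on counts simulated for MYO5BΔIEC against control. That test left out the fit of all groups together and limma on FPKM plus 0.1. The members, lists and tests were chosen with earlier results of these data known. Members were named when they act on the MYO5B route, passed the threshold and averaged 1 CPM or more, or were among the 5 with the highest control FPKM, and from each list of Rab-cycle genes the 2 largest rises and the 2 largest falls were named. Cultures of a group were numbered as labelled, and those with the same number did not deviate together in every pair.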

Additional observations from a re-analysis of the deposited data

Results flagged for a closer look

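The search for unusual values covered 23 of the named Rab genes, without Rab1a, Rab7 and Rab5c. Within the 4 cultures of each group, the gap of a value to its nearest neighbour was divided by the range. A value was flagged where this ratio exceeded Dixon's 95% critical value for 4 values. This gave 9 values in 92 groups, where chance gives about 1 in 20 groups, and all 4 of those in control belong to culture 1. In control culture 1, Rab25 was lowest at 151 CPM (next 204), Rab9 lowest at 29.1 CPM (next 76.1), Rab14 highest at 184 CPM (next 117) and Rab11b highest at 92.1 CPM (next 68.9). In MYO5BΔIEC, Rab25 of culture 4 was highest at 153 CPM (next 130.2). In MYO5B(G519R), culture 4 was highest for Rab11b at 97.5 CPM (next 81.1) and for Rab15 at 60.9 CPM (next 36.0), and culture 2 was lowest for Rab18 at 90.5 CPM (next 97.4). With Compound-1, Rab14 of culture 1 was highest at 177 CPM (next 161).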

How the results depend on the processing

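Of the 47 named differences past the threshold, none changed direction in 846 alternative values. All 47 passed with DESeq2, with its size factors, with edgeR's own filter and without control culture 1. Calls were lost for 18 with the culture number as a block, 10 with the length correction and 7 with no low-count filter. Each limma setting lost 5, all groups in 1 fit lost 1, and the length correction without control culture 1 lost 7. With 1 other library left out, 122 values did not pass and 207 did. The count of Rab genes called was 11 in MYO5BΔIEC and 13 in MYO5B(G519R) against control, and ran from 4 to 21 and from 4 to 25 when 1 library was left out, with the highest counts without control culture 1. For Compound-1 against control the count was 10 and ran from 7 to 22. The share of all tested genes called moved with them, from 16.7% to 42.0%, from 16.3% to 46.2% and from 16.7% to 42.1%. With the culture number as a block the counts were 5, 6 and 8, and the shares 20.3%, 20.7% and 24.5% against 27.4%, 26.8% and 29.4% without it. Both comparisons without controls stayed at 0. Same-numbered cultures did not deviate together above 0.1 in every pair of any comparison, so the numbers were not taken as pairs. MYO5B(G519R) against MYO5BΔIEC came nearest, with correlations of 0.069 to 0.571 and 3 of 4 cultures closest to their own number, and there the block moved the genes with an unadjusted p under 0.05 from 772 to 2532 of 17943, and from 3 to 6 of 53 Rab genes. With all groups in 1 fit, Compound-1 against control gave 19, with 38.6% of all tested genes called. With the length correction and no control culture 1, a fit chosen after seeing the data, MYO5B(G519R) gave 20 and Compound-1 gave 17, with 43.3% and 40.1% of all tested genes.

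Of 25 differences not past the threshold, 21 of 440 alternative values had the other sign. Against control in MYO5BΔIEC, Rab10 was 0.0082 with DESeq2 and with its size factors, 0.0005 with edgeR's filter, 0.0372 with the block, 0.0588 and 0.0609 with limma on FPKM plus 1 and plus 0.1, 0.188 with the length correction and no control culture 1, and -0.1105 to 0.2133 with 1 library left out. Rab8b was -0.043 and Rab14 was -0.0242 with the length correction, and Rab8b ran from -0.1257 to 0.2018 with 1 library left out. In MYO5B(G519R), Rab14 was -0.0287 with the length correction, Rab11a was -0.0172 and Rab10 was 0.0994 with that and no control culture 1, and with 1 library left out Rab11a ran from -0.0284 to 0.0929, Rab8b from -0.2082 to 0.0568 and Rab10 from -0.2041 to 0.1549. Rab25 in MYO5B(G519R) against MYO5BΔIEC ran from -0.0224, without MYO5B(G519R) culture 4, to 0.1149. The cause of these shifts was not tested. Depth limits the genes near the floor of detection.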
